A study of Mus musculus with 32 samples.

Results

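The genes described here are the ligands and receptors of the BAFF and APRIL system, the CD40 pair, and the costimulatory genes Cd80, Cd86 and Ctla4. They were chosen because the therapies named for these kidneys act on their proteins. Of the 10 genes listed (Tnfsf13b, Tnfsf13, Tnfrsf13b, Tnfrsf13c, Tnfrsf17, Cd40, Cd40lg, Cd80, Cd86 and Ctla4), 8 had a row among the 15780 named genes that were tested. Tnfsf13, which encodes APRIL, and Tnfrsf13b, which encodes TACI, are not analysed here. In RefSeq for GRCm38.p6, the ligand genes lie at chr8:10006229-10036000 (Tnfsf13b) and chrX:57212143-57224042 (Cd40lg), and the TNF receptor genes at chr15:82221742-82224380 (Tnfrsf13c), chr16:11313232-11320074 (Tnfrsf17) and chr2:165055614-165071654 (Cd40). Cd80 and Cd86 lie on one chromosome, at chr16:38457430-38495958 and chr16:36568956-36666158, and Ctla4 at chr1:60909025-60915832.

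RNA of whole kidneys from lupus-prone mice was measured on Affymetrix arrays, 1 array per kidney, in 32 kidneys that fell into 5 groups. The NZM2410 group held 6 kidneys taken in remission after Ad-BAFF-R-Ig, an adenovirus that encodes a soluble BAFF receptor. The other 26 kidneys came from the NZB/W strain. Of these, 6 had reached late remission under CTX (cyclophosphamide), CTLA4Ig and anti-CD154 given together, called triple therapy below, and 5 under Ad-TACI-Ig with CTLA4Ig, 8 were in early remission under the triple therapy, and 7 were 30 weeks old and not proteinuric, with no therapy named. CTLA4Ig is a soluble receptor that binds CD80 and CD86, anti-CD154 binds the CD40 ligand, and TACI-Ig binds BAFF and APRIL. Nephritic kidneys are not analysed here. NZM2410 kidneys differed from every NZB/W group in strain, in therapy and in array background (given below) together, and these cannot be told apart. The sources used here give neither the ages of the treated mice, nor the sex, nor how long each remission had lasted, nor whether a probe set could read RNA of the adenoviral receptors. The p-values measure the spread between these kidneys. Replicate 6 at 30 weeks and replicate 1 of early remission carry the same mouse code, and no call below changed when both were left out of that comparison.

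BAFF, made mainly by myeloid and stromal cells, keeps mature B cells alive through its receptor BAFF-R, while TACI and BCMA bind both BAFF and APRIL and serve activated B cells and plasma cells. CD40 ligand on activated T cells engages CD40 on B cells, macrophages and dendritic cells. These cells in turn show CD80 and CD86 to CD28 on T cells, and CTLA-4 competes with CD28 for the same ligands. In lupus nephritis, the kidney itself can hold B cells, plasma cells, T cells and macrophages, sometimes in lymphoid aggregates.

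Values are log2 expression values, so that a difference of 1 is a doubling. Proximal tubule markers such as Lrp2 (13.23 ± 0.20 in NZM2410 kidneys and 12.79 ± 0.13 in 30-week kidneys, SD, n = 6 and 7) were high, as the tissue label says. The genes described here were dim by comparison with the tissue's own genes. As a gauge of array background, the 37 olfactory receptor genes on the array were used, most of which kidney is not known to transcribe. Their 95th percentile lay between 5.69 and 5.96 on the NZM2410 arrays and between 6.27 and 6.82 on the NZB/W arrays. Tnfrsf17, Cd40, Cd80, Cd86 and Ctla4 were among the dimmest 5260 of the 15780 genes, with a mean below 6.07 over the arrays. On the NZM2410 arrays Tnfsf13b, Cd40, Cd86 and Cd40lg lay above this background gauge in 6 of 6 kidneys, and Tnfrsf13c, Tnfrsf17, Cd80 and Ctla4 in 0 of 6. On the NZB/W arrays only Cd40lg was above the gauge in most kidneys, namely in 6 of 6 in late remission after triple therapy, 5 of 5 after TACI-Ig, 7 of 8 in early remission and 7 of 7 at 30 weeks. Tnfsf13b was above it in 2, 1, 1 and 3 kidneys of these groups, and Cd80 and Ctla4 in 0 kidneys of any group. Tnfrsf17, Cd40 and Cd86 were each above it in 1 of 7 kidneys at 30 weeks and in 0 kidneys of the other NZB/W groups. In bulk kidney RNA, fewer cells of a type and less RNA per cell cannot be told apart.

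Stretches before an annotated start of Tnfrsf13c and of Tnfrsf17 are shown because these B-lineage receptor genes had the largest differences between NZM2410 and 30-week NZB/W kidneys. Each runs over the 250 bases before that start, 5′ to 3′ on the gene's strand, from RefSeq for GRCm38.p6. The Tnfrsf17 stretch lies inside the gene span given above, and its positions count from a start within that span. Capitals mark the motifs found by letter search on both strands.
Tnfrsf13c, chr15:82224381-82224630, minus strand: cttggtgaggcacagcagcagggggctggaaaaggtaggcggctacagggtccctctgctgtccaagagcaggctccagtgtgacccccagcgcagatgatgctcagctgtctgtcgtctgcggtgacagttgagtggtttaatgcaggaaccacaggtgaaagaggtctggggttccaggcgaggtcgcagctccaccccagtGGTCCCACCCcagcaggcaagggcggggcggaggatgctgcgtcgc
Tnfrsf17, chr16:11313559-11313808, plus strand: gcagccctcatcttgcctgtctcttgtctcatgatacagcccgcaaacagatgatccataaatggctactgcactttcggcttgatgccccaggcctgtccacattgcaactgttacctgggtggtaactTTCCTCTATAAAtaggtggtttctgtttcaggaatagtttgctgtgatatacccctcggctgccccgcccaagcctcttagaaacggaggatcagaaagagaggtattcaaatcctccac
The Tnfrsf13c stretch held 1 match to the general form of an NF-κB site, GGG and CC set 5 bases apart, at -46 on the other strand, a form found in 45.8% of 32851 mouse promoters of the same length. The Tnfrsf17 stretch held GAGGAA, the core bound by PU.1 and related factors, at -120 on the other strand, and directly next to it, without overlap, TATAAA at -114. These were found in 23.3% and 12.4% of all promoters. The form TTCNNNGAA, read by STAT proteins, was in 7.02% of all promoters and in 0 of the 8 promoters found for 7 of the listed genes. These matches are letters only and say nothing of binding.

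In the NZB/W groups no difference in these genes passed the test. In none of the 6 comparisons within NZB/W was any of the 8 measured genes called, taking a limma adjusted p under 0.05 as a call. The background share of calls was as low, at 0% of all genes for late triple therapy against 30 weeks, 0% for TACI-Ig against 30 weeks, 0% for early remission against 30 weeks, 0% for TACI-Ig against early remission, 0.0697% for late against early triple therapy and 0.076% for late triple therapy against TACI-Ig. At an unadjusted p under 0.05, these comparisons held 46, 3208, 1386, 2336, 838 and 85 genes. Of the genes described here, 2 were among them, Cd40lg and Cd80 in TACI-Ig kidneys against 30-week kidneys. In late remission after triple therapy the mean of each of the 8 genes lay within 0.0152 of the mean over the TACI-Ig and 30-week kidneys pooled (12 kidneys), and that of every tested gene within 0.026, a closeness that limits what comparisons with this group can show. What made these means so close was not tested.

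**Figure D1:**
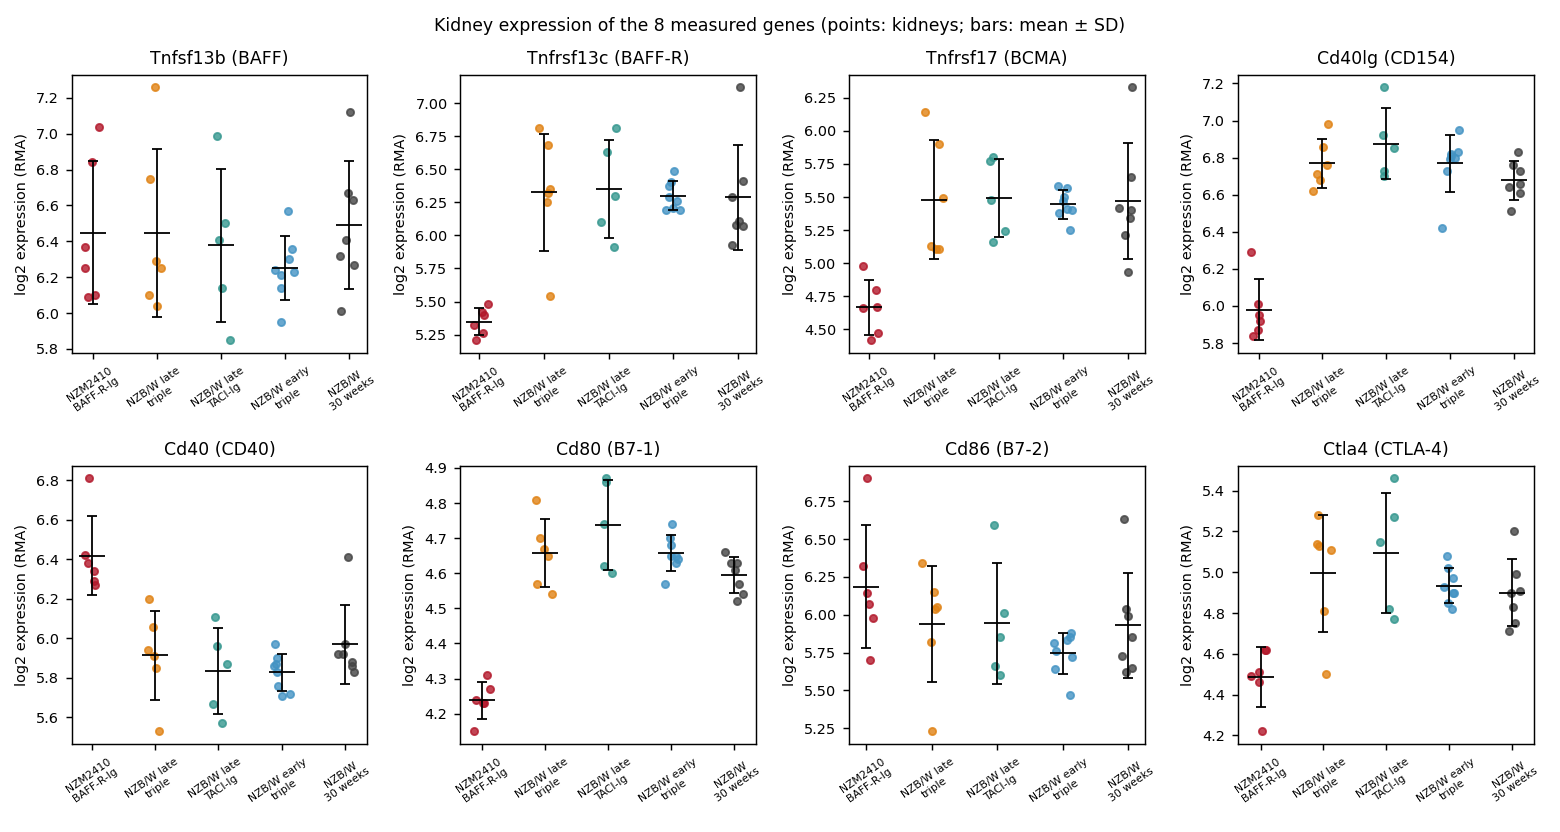
Log2 expression of the 8 measured genes, 1 point per kidney, in NZM2410 kidneys (n = 6) and in the NZB/W groups of late triple therapy (6), late TACI-Ig (5), early triple therapy (8) and 30 weeks (7). Bars are mean ± SD, and the vertical axes do not start at 0. NZM2410 kidneys lie below the NZB/W kidneys for Tnfrsf13c, Cd40lg and Cd80 and mostly above them for Cd40.

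The ligand gene Tnfsf13b, which encodes BAFF, was called in no comparison. NZM2410 kidneys after BAFF-R-Ig had 6.25, 6.09, 7.04, 6.10, 6.37 and 6.84. In NZB/W kidneys Tnfsf13b ran from 6.04 through a median of 6.27 to 7.26 in late remission after triple therapy, was 6.41, 6.14, 6.50, 5.85 and 6.99 after TACI-Ig, ran from 5.95 through 6.23 to 6.57 in early remission and from 6.01 through 6.41 to 7.12 at 30 weeks. The groups overlapped throughout, and the kidneys of early remission spread least. Means were 6.45 ± 0.40 in NZM2410 kidneys, 6.45 ± 0.47 in late remission after triple therapy, 6.38 ± 0.43 after TACI-Ig, 6.25 ± 0.18 in early remission and 6.49 ± 0.36 at 30 weeks (SD, n = 6, 6, 5, 8 and 7). No neighbours in this order of means differed beyond their spread.

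Early remission had the lowest Tnfsf13b mean, with a difference from 30 weeks of -0.24 (95% confidence interval -0.51 to 0.03, limma adjusted p = 0.631). After TACI-Ig, which binds BAFF, the difference from 30 weeks was -0.11 (-0.53 to 0.31). NZM2410 kidneys after BAFF-R-Ig, which also binds BAFF, differed from 30-week NZB/W kidneys by -0.04 (-0.44 to 0.35) and from early remission by 0.20 (-0.10 to 0.50). The widest of these intervals reached from -0.53 to 0.31.

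Tnfrsf13c, the gene of the BAFF receptor BAFF-R, was much lower in NZM2410 kidneys than in any NZB/W group. It measured 5.26, 5.48, 5.32, 5.42, 5.21 and 5.40 in the NZM2410 kidneys. In NZB/W kidneys it ran from 5.54 through a median of 6.34 to 6.81 in late remission after triple therapy, was 6.63, 5.91, 6.81, 6.10 and 6.30 after TACI-Ig, ran from 6.19 through 6.27 to 6.49 in early remission and from 5.93 through 6.11 to 7.12 at 30 weeks. Every NZM2410 kidney was below every NZB/W kidney, and the nearest was replicate 11 of the late triple therapy group at 5.54. The NZM2410 mean of 5.35 ± 0.10 stood against 6.33 ± 0.44, 6.35 ± 0.37, 6.30 ± 0.11 and 6.28 ± 0.40 in these NZB/W groups. The difference was -0.98 ± 0.16 from late triple therapy, -1.0 ± 0.14 from TACI-Ig, -0.95 ± 0.06 from early remission and -0.94 ± 0.15 from 30 weeks (SE; limma adjusted p = 0.00013, 5.17e-05, 3.31e-09 and 7.16e-05). Since Tnfrsf13c was above the background gauge in 0 of 6 NZM2410 kidneys, and in 2 of 6, 1 of 5, 0 of 8 and 1 of 7 kidneys of these NZB/W groups, no fold is given, and the difference from 30 weeks was -0.53 once arrays were centred on background as described below. Within NZB/W the differences ran from -0.02 to 0.06, with the interval for TACI-Ig against 30 weeks reaching from -0.36 to 0.49.

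Tnfrsf17 encodes BCMA, the receptor that long-lived plasma cells use for APRIL and BAFF. It measured 4.67, 4.66, 4.80, 4.98, 4.47 and 4.42 in NZM2410 kidneys. In NZB/W kidneys it ran from 5.11 through 5.31 to 6.14 in late remission after triple therapy, was 5.77, 5.16, 5.80, 5.24 and 5.48 after TACI-Ig, ran from 5.25 through 5.44 to 5.58 in early remission and from 4.93 through 5.40 to 6.33 at 30 weeks. All NZM2410 kidneys were below all kidneys of the remission groups, and at 30 weeks replicate 7 with 4.93 fell below the highest NZM2410 kidney. The difference was -0.82 ± 0.18 from late triple therapy, -0.82 ± 0.13 from TACI-Ig, -0.78 ± 0.08 from early remission and -0.80 ± 0.17 from 30 weeks (SE; limma adjusted p = 0.00107, 0.000178, 5.02e-07 and 0.000943). Group means within NZB/W lay between 5.44 ± 0.11 in early remission and 5.49 ± 0.29 after TACI-Ig, and none differed from the next.

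Cd40lg, the gene of CD154 against which the antibody of the triple therapy is directed, was also lower in NZM2410 kidneys. It measured 5.92, 5.84, 6.01, 6.29, 5.87 and 5.95 there. Among the NZB/W groups it ran from 6.62 through 6.73 to 6.98 in late remission after triple therapy, was 7.18, 6.70, 6.85, 6.73 and 6.92 after TACI-Ig, ran from 6.42 through 6.81 to 6.95 in early remission and from 6.51 through 6.66 to 6.83 at 30 weeks. The strains did not overlap. The NZM2410 mean of 5.98 ± 0.16 gave differences of -0.79 ± 0.08 from late triple therapy, -0.90 ± 0.10 from TACI-Ig, -0.79 ± 0.08 from early remission and -0.70 ± 0.07 from 30 weeks (SE; limma adjusted p = 2.79e-06, 1.09e-05, 4.22e-07 and 1.46e-06). Within NZB/W, TACI-Ig kidneys had the highest mean, 6.88 ± 0.19, and 30-week kidneys the lowest, 6.68 ± 0.11. That difference of 0.20 (95% confidence interval 0.02 to 0.38) was not called, with a limma adjusted p of 0.223, and kidneys given the antibody differed from 30-week kidneys by 0.09 in late and 0.09 in early remission. The late value says little of the antibody, since every mean of that group lay close to the pooled TACI-Ig and 30-week mean.

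Cd40, the receptor on B cells, macrophages and dendritic cells, went the other way and was higher in NZM2410 kidneys. It measured 6.38, 6.29, 6.81, 6.27, 6.34 and 6.42 there. The NZB/W values ran from 5.53 through 5.92 to 6.20 in late remission after triple therapy, were 5.96, 5.57, 6.11, 5.67 and 5.87 after TACI-Ig, ran from 5.71 through 5.85 to 5.97 in early remission and from 5.83 through 5.92 to 6.41 at 30 weeks. NZM2410 kidneys were above all NZB/W kidneys but replicate 2 of the 30-week group, whose 6.41 stood between the NZM2410 values. The NZM2410 mean of 6.42 ± 0.20 was higher than late triple therapy by 0.50 ± 0.11, than TACI-Ig by 0.58 ± 0.12, than early remission by 0.59 ± 0.08 and than 30 weeks by 0.45 ± 0.10 (SE; limma adjusted p = 0.0014, 0.000769, 5.43e-06 and 0.00144). For Cd40, 6 of 6 NZM2410 kidneys but only 1 of 7 kidneys at 30 weeks were above the background gauge, so that no fold is given, and the difference from 30 weeks was 0.86 once arrays were centred on background as described below. Within NZB/W the 30-week mean, 5.97 ± 0.20, was the highest and the early-remission mean, 5.83 ± 0.09, the lowest, with a difference of -0.14 (-0.30 to 0.02).

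Cd86 and Cd80 encode the ligands that CTLA4Ig blocks. Cd86, the ligand that resting myeloid cells already carry, measured 5.98, 5.70, 6.90, 6.14, 6.07 and 6.32 in NZM2410 kidneys. In NZB/W kidneys it ran from 5.23 through 6.05 to 6.34 in late remission after triple therapy, was 6.01, 5.60, 5.85, 5.66 and 6.59 after TACI-Ig, ran from 5.47 through 5.78 to 5.88 in early remission and from 5.62 through 5.85 to 6.63 at 30 weeks. All groups overlapped. NZM2410 kidneys, at 6.19 ± 0.41, were called higher only against early remission, at 5.74 ± 0.13, by 0.44 ± 0.14 (SE; limma adjusted p = 0.00933). The difference was 0.25 (95% confidence interval -0.17 to 0.67) from late triple therapy, 0.25 (-0.20 to 0.69) from TACI-Ig and 0.26 (-0.13 to 0.65) from 30 weeks, so that these intervals hold the called value of 0.44. Without 30-week replicate 2, the last of these became 0.38 with a limma adjusted p of 0.0498, and without this kidney and NZM2410 replicate 3 it was 0.23 with 0.0725. No NZB/W group given CTLA4Ig differed in Cd86 from 30-week kidneys by a called amount, with 0.01 (-0.37 to 0.39) between late triple therapy and 30 weeks, 0.01 (-0.39 to 0.41) between TACI-Ig and 30 weeks and -0.19 (-0.44 to 0.07) between early remission and 30 weeks. The late triple therapy value is limited by the closeness of that group's means to the pooled TACI-Ig and 30-week means.

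Cd80, the ligand induced on activated cells, was the dimmest of the genes. Its NZM2410 values were 4.15, 4.23, 4.24, 4.31, 4.27 and 4.23. NZB/W kidneys ran from 4.54 through 4.66 to 4.81 in late remission after triple therapy, were at 4.87, 4.62, 4.60, 4.74 and 4.86 after TACI-Ig, and ran from 4.57 through 4.65 to 4.74 in early remission and from 4.52 through 4.61 to 4.66 at 30 weeks. The strains did not overlap, and differences were called at -0.42 ± 0.05 from late triple therapy, -0.50 ± 0.07 from TACI-Ig, -0.42 ± 0.04 from early remission and -0.35 ± 0.04 from 30 weeks (SE; limma adjusted p = 1.85e-05, 4.58e-05, 2.62e-07 and 5e-06). All of these values lay under the background gauge, and the differences were of the size seen in olfactory receptor genes, as given below.

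Ctla4, the inhibitory receptor of activated and regulatory T cells, measured 4.62, 4.49, 4.62, 4.51, 4.46 and 4.22 in NZM2410 kidneys. The NZB/W values ran from 4.50 through 5.12 to 5.28 in late remission after triple therapy, were 5.27, 4.77, 5.15, 4.82 and 5.46 after TACI-Ig, ran from 4.82 through 4.92 to 5.08 in early remission and from 4.71 through 4.90 to 5.20 at 30 weeks. Only replicate 11 of the late triple therapy group, at 4.50, reached into the NZM2410 range. Differences were -0.51 ± 0.12 from late triple therapy, -0.61 ± 0.12 from TACI-Ig, -0.45 ± 0.06 from early remission and -0.41 ± 0.08 from 30 weeks (SE; limma adjusted p = 0.00201, 0.00091, 1.37e-05 and 0.000556). Ctla4 was also under the background gauge in all kidneys. The group given TACI-Ig with CTLA4Ig had the highest NZB/W mean, 5.09 ± 0.29, which differed from 30 weeks by 0.20 (95% confidence interval -0.06 to 0.45).

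Thus 5 of the 8 genes were called lower in NZM2410 kidneys in each of the 4 comparisons, against a background of 30.7% of all genes called lower against late triple therapy, 30.9% against TACI-Ig, 33.2% against early remission and 31.3% against 30 weeks. Among the dimmest 5260 genes, which hold Tnfrsf17, Cd80 and Ctla4, 57.1%, 58.4%, 59.6% and 56.5% were called lower in the same order. Among the other genes, which hold Tnfrsf13c and Cd40lg, these shares were 17.4%, 17.1%, 20.0% and 18.6%. Cd40 alone was called higher, with Cd86 added against early remission, where the background called higher was 31.1%, 28.6%, 31.5% and 31.5% in the same order. The 4 comparisons share the NZM2410 kidneys and are not independent of each other. Between 9388 and 10198 of the 15780 genes passed the threshold in these comparisons, so that a call alone sets the genes described little apart. How many of all genes also showed no overlap between the strains is not given here, and non-overlap is a description only.

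Array background differed between the NZM2410 and the NZB/W arrays. The mean of the olfactory receptor genes was 4.69 ± 0.08 on NZM2410 arrays, against 5.14 ± 0.05 in late triple therapy, 5.19 ± 0.11 after TACI-Ig, 5.14 ± 0.07 in early remission and 5.10 ± 0.05 at 30 weeks. Against 30 weeks their median difference was -0.44 (quartiles -0.53 and -0.08), with 27 of 37 called lower, and the 5260 dimmest genes had a median of -0.26, whereas the other genes had 0.10. The values of Cd80 (-0.35) and Ctla4 (-0.41) lay within these quartiles, and those of Tnfrsf13c (-0.94), Tnfrsf17 (-0.80) and Cd40lg (-0.70) below them.

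When each array was centred on its olfactory receptor genes, a scaling chosen after the data were seen, Tnfrsf13c remained lower against 30 weeks by -0.53, Tnfrsf17 by -0.40 and Cd40lg by -0.29 (limma adjusted p = 0.00566, 0.0459 and 0.000867), and Cd40 was higher by 0.86 (3.56e-06). Against late triple therapy, Tnfrsf17 was then no longer called, at -0.36 (0.0684). Cd80 was then at 0.05 and Ctla4 at 0.00, and neither was called. Cd86 became called at 0.67 against 30 weeks (0.00329). Tnfsf13b was called higher against early remission, by 0.65 (0.000529), and against TACI-Ig, by 0.57 (0.0236), but not against late triple therapy (0.45, 0.0773) or 30 weeks (0.37, 0.091). This scaling raised the median difference of all genes against 30 weeks to 0.43, with 70.4% of genes called higher and 7.21% lower, and centring on array medians instead gave 23.7% higher and 36.7% lower. In the comparisons with late triple therapy, TACI-Ig and early remission, the olfactory centring called 70.8%, 70.5% and 72.6% of genes higher and 5.80%, 5.17% and 7.22% lower, and the median centring 24.6%, 22.6% and 22.9% higher and 35.1%, 35.6% and 40.3% lower. Against that median of 0.43, the Tnfsf13b value of 0.37 was near the middle of all genes. Normalizing the quantiles again left Tnfrsf13c (-0.86), Tnfrsf17 (-0.59), Cd40lg (-0.70) and Cd40 (0.39) called against 30 weeks, and Cd80 (0.00) and Ctla4 (-0.13) not called.

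**Figure D2:**
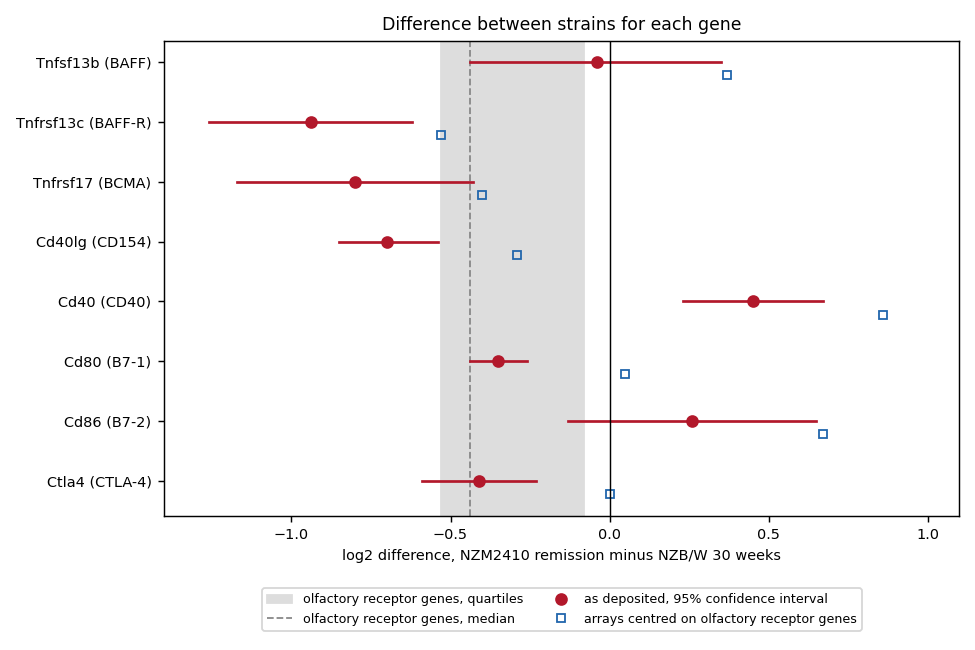
Log2 difference of NZM2410 kidneys in remission (n = 6) minus NZB/W kidneys at 30 weeks (n = 7) for the 8 genes, as deposited (filled circles with 95% confidence intervals) and with each array centred on its 37 olfactory receptor genes (open squares). The grey band and dashed line are the quartiles and median (-0.44) of the olfactory receptor genes as deposited. Cd80 and Ctla4 lie in the band, Tnfrsf13c, Tnfrsf17 and Cd40lg below it, and Cd40 at 0.45 on the other side of 0.

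B cell markers were lower in NZM2410 kidneys beside Tnfrsf13c and Tnfrsf17, and plasma cell markers were called in both directions. Against 30 weeks, 31.3% of all genes were called lower and 31.5% higher, and 7.21% and 70.4% after the olfactory centring. Of 7 measured B cell markers, 7 were called lower and 0 higher against each NZB/W group, with a median of -0.86 against 30 weeks, where all genes had a median of 0.02. The list's mean ran from 5.02 to 5.21 in NZM2410 kidneys, against 5.20 to 6.42 in late triple therapy, 5.50 to 6.39 after TACI-Ig, 5.66 to 6.24 in early remission and 5.60 to 6.74 at 30 weeks. Ms4a1, the gene of the B cell antigen CD20, averaged 4.46 ± 0.20 in NZM2410 kidneys and 5.77 ± 0.97 in 30-week kidneys, with a difference of -1.31 ± 0.35 (SE; limma adjusted p = 0.00448). With arrays centred on olfactory receptor genes, 4 of 7 were called lower and 0 higher against 30 weeks, and the median was -0.45. Of 7 plasma cell markers 4 were called lower and 1 higher against 30 weeks, namely Jchain, which joins IgA and IgM, by -4.41 ± 0.44, the secretory cofactor Mzb1 by -1.46 ± 0.29 and the plasma cell regulator Prdm1 by -0.66 ± 0.14 among the lower, and Xbp1, which many other secretory cells express, higher by 0.75 ± 0.12 (SE; limma adjusted p = 8.87e-07, 0.000559, 0.00109 and 0.000101). The plasma cell counts were 2 lower and 2 higher after the olfactory centring, with Jchain at -4.00. The part of cell content in the values of Tnfrsf13c and Tnfrsf17 was not tested.

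T cell markers stood beside Cd40lg and Ctla4, and myeloid markers beside Cd40, Cd86 and Tnfsf13b. The shares of all genes called lower and higher against 30 weeks were 31.3% and 31.5%, and 7.21% and 70.4% after the olfactory centring. Of 10 T cell markers, 5 were called lower and 1 higher against 30 weeks (median -0.28), with Cd3e, a chain of the T cell receptor complex, lower by -0.83 ± 0.10 and the coreceptor Cd4 higher by 0.58 ± 0.09 (SE; limma adjusted p = 4.96e-06 and 3.18e-05). After the olfactory centring the median was 0.13, with 1 lower and 2 higher. The mean of the T cell list ran from 5.34 to 5.92 in NZM2410 kidneys and from 5.43 to 6.38 in 30-week kidneys. Of 11 macrophage and dendritic cell markers, 1 was called lower and 0 higher (median -0.30), namely Flt3, the growth factor receptor of dendritic cells, at -0.86 ± 0.08 (SE; limma adjusted p = 3.94e-07), and the list's mean ran from 7.18 to 8.77 in NZM2410 kidneys, against 7.64 to 9.27 in 30-week kidneys. After the olfactory centring 1 of the 11 was called higher and 1 lower, with a median of 0.10. The part of cell content in the values of Cd40, Cd40lg and Ctla4 was not tested.

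None of the genes in the 5 pathway lists was called in any comparison within NZB/W. Against 30 weeks, 4 of 15 genes of BAFF and APRIL signalling were called higher in NZM2410 kidneys and 2 lower, with a median of 0.05, where 31.5% of all genes were called higher and 31.3% lower. The kinase gene Ikbkb averaged 7.30 ± 0.12 in NZM2410 kidneys and 6.33 ± 0.17 at 30 weeks, a difference of 0.97 ± 0.08, the adaptor Traf2 differed by 0.63 ± 0.08 and Traf6 by 0.58 ± 0.08, while Traf1, which NF-κB induces, was lower by -0.56 ± 0.16 (SE; limma adjusted p = 1.57e-07, 7.67e-06, 1.62e-05 and 0.00667). After the olfactory centring, Ikbkb (1.38), Traf2 (1.04) and Traf6 (0.99) were still called higher and Traf1 (-0.15) was not called, and 12 of the 15 genes were called higher and 0 lower, beside 70.4% and 7.21% of all genes.

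Of 14 genes that CD40 signals are known to induce, 1 was called higher and 5 lower against 30 weeks (median -0.07), where 31.5% of all genes were called higher and 31.3% lower. Fcer2a, the low-affinity IgE receptor of B cells, was lower by -0.68 ± 0.06 (SE; limma adjusted p = 3.42e-07). Against early remission 5 were called higher, among them Nfkbie by 0.76 ± 0.17 and Nfkbia by 0.59 ± 0.16, both inhibitors of NF-κB, and the adhesion gene Vcam1 by 0.82 ± 0.31, and 7 lower (SE; limma adjusted p = 0.000964, 0.00414 and 0.0309). Of all genes, 31.5% were called higher and 33.2% lower in that comparison. After the olfactory centring the list's median against 30 weeks was 0.33, with 7 of 14 called higher and 1 lower, beside a median of 0.43 and 70.4% and 7.21% of all genes. The median of all genes was 0.02 as deposited, so that the list's change of sign came with a rise over all genes.

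Of the 10 other CD28 and B7 family genes, 6 were called lower and 1 higher against 30 weeks, with a median of -0.46. In that comparison 31.3% of all genes were called lower and 31.5% higher. Pdcd1lg2, a ligand of PD-1, averaged 4.05 ± 0.18 in NZM2410 kidneys and 5.19 ± 0.08 at 30 weeks, a difference of -1.13 ± 0.07, and Cd28 itself differed by -0.59 ± 0.17 and Icos, its relative on activated T cells, by -0.50 ± 0.10 (SE; limma adjusted p = 2.23e-08, 0.00726 and 0.000626). The olfactory centring left 1 lower and 3 higher, with Pdcd1lg2 at -0.72, Cd28 at -0.18 and Icos at -0.09. Of 15 genes of CD28 and CTLA-4 signalling, 2 were called higher, the adaptors Lat by 0.57 ± 0.12 and Grap2 by 0.44 ± 0.05, and 0 lower (SE; limma adjusted p = 0.000838 and 5.18e-06), and after the olfactory centring 12 were higher and 0 lower, beside 70.4% and 7.21% of all genes. Of 23 other TNF superfamily genes of lymphocytes, 11 were called lower and 1 higher (median -0.25), with Cd27, a receptor of memory B cells and T cells, at -0.87 ± 0.11 (SE; limma adjusted p = 7.18e-06), and after the olfactory centring 2 were lower and 10 higher, beside 7.21% and 70.4% of all genes.

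Within the NZB/W groups, several of the genes rose and fell together from kidney to kidney. Each value was set against the mean of its group, and the 28 pairs of genes were correlated over the 26 NZB/W kidneys, with permutation within groups (100000 resamples, two-sided) and adjustment over the 28 pairs. For 8 pairs the adjusted p of Pearson's r was under 0.05, with r between 0.61 and 0.79. The share of such pairs among other genes was not computed, so this count does not set these genes apart. Cd86 and Ctla4, ligand and receptor, had r = 0.79 and rho = 0.70 (adjusted permutation p = 0.0028 and 0.0042). The receptor genes Tnfrsf17 and Cd40 had r = 0.78 and rho = 0.67 (0.0028 and 0.0042 by permutation), and Tnfrsf13c and Tnfrsf17 had r = 0.73 and rho = 0.64 (0.009 and 0.0091 by permutation). Tnfsf13b was tied most closely to Cd86, with r = 0.70 and rho = 0.74 (0.009 and 0.0042 by permutation). In these NZB/W kidneys Ctla4 was never above the background gauge. Cd86, Cd40 and Tnfrsf17 were each above it in only 1 kidney, at 30 weeks, so that these relations rest largely on values near background.

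Most of these relations were weaker without the most extreme kidneys. Without the 2 kidneys farthest from the median of the first gene, r was 0.68 for Cd86 and Ctla4, 0.60 for Tnfrsf17 and Cd40, 0.60 for Tnfrsf13c and Tnfrsf17 and 0.72 for Tnfsf13b and Cd86. It was lowest for Tnfrsf17 and Cd86, at 0.38 (0.61 with all kidneys, rho = 0.45, adjusted permutation p = 0.026 and 0.072). Without 30-week replicate 2 the r of these 5 pairs was 0.76, 0.67, 0.60, 0.75 and 0.46. Over all 26 kidneys Cd80 and Cd40lg stood apart, with r of 0.03 to 0.55 for Cd80 and of 0.12 to 0.50 for Cd40lg with the other genes, and an adjusted permutation p of 0.053 or more for each r. Without the late triple therapy group, r ran from 0.11 to 0.68 for Cd80, highest with Ctla4. For Cd40lg it then ran from 0.30 to 0.66, highest with Tnfrsf17, so that standing apart depended on that group. By rank, Cd80 and Ctla4 had rho = 0.63 and Tnfrsf17 and Cd40lg had rho = 0.50 (adjusted permutation p = 0.017 and 0.049).

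**Figure D3:**
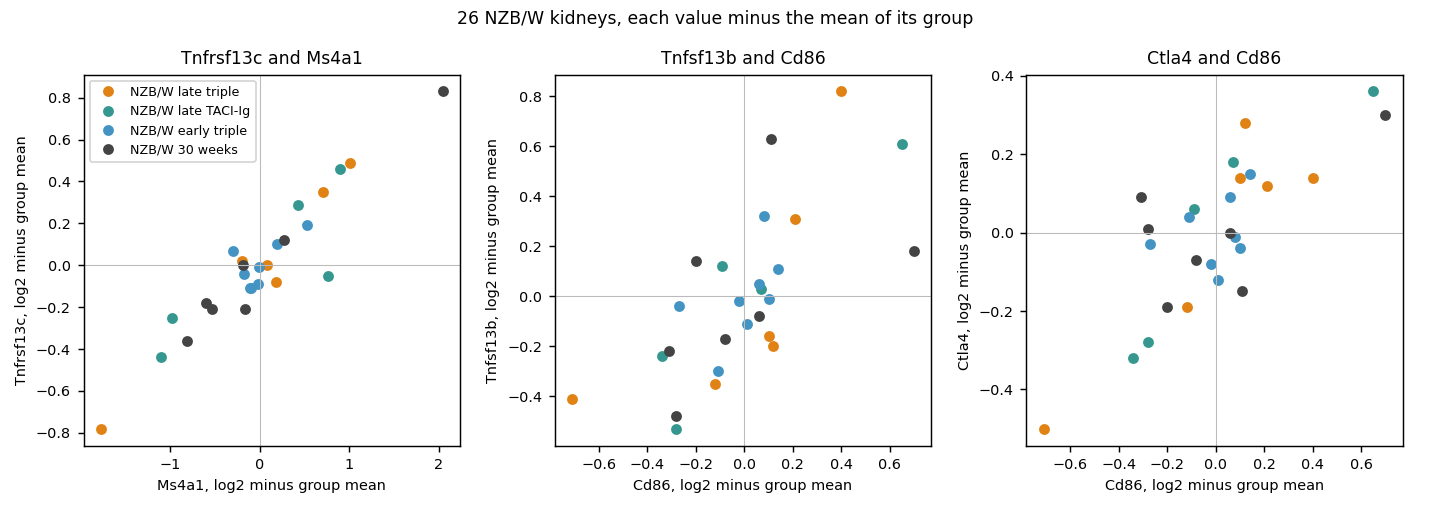
Log2 expression minus the group mean in 26 NZB/W kidneys, 1 point per kidney, for Tnfrsf13c and Ms4a1 (left), Tnfsf13b and Cd86 (middle, r = 0.70) and Ctla4 and Cd86 (right, r = 0.79). Colours mark late triple therapy, TACI-Ig, early triple therapy and 30 weeks. Tnfrsf13c follows the B cell gene Ms4a1 (r = 0.94) from the lowest kidney, of late triple therapy, to the highest, of the 30-week group.

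The genes also followed the marker lists of immune cells. Over 144 pairs of a gene and a list mean (18 lists), Tnfrsf13c had r = 0.93 and rho = 0.85 with the mean of 7 B cell markers (adjusted permutation p = 0.00024 and 0.00032). Without the 2 kidneys farthest from the median of that list mean, r was 0.87. Tnfsf13b had r = 0.78 and rho = 0.85 with 11 macrophage and dendritic cell markers (0.00085 and 0.00032 by permutation), against r = 0.61 with B cell markers. Cd86 had r = 0.84 and rho = 0.78 with the macrophage and dendritic cell markers (0.00039 and 0.00033 by permutation), 0.83 with B cell markers and 0.81 with T cell markers (rho = 0.77 and 0.74), and 0.89 with 3 lymph node stroma markers (Cxcl13, Glycam1 and Madcam1; rho = 0.78, 0.00024 and 0.00032 by permutation). Tnfrsf13c too had r = 0.90 with those stroma markers (rho = 0.82, 0.00039 and 0.00036 by permutation). Correlations between the list means were not computed, and the values do not assign a gene to a cell. Cd40lg was tied to the mean of the olfactory receptor genes, with r = 0.66 and rho = 0.51 (0.0089 and 0.034 by permutation) and r = 0.39 without the 2 farthest kidneys, and to the mean of 4 regulatory T cell markers, with r = 0.70 and rho = 0.69 (0.0011 and 0.0017 by permutation) as deposited and r = 0.37 with arrays centred on olfactory receptor genes. With the 10 T cell markers Cd40lg had r = 0.29 and rho = 0.23 (0.23 and 0.38 by permutation), and r = 0.50 without the late triple therapy group.

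**Figure D4:**
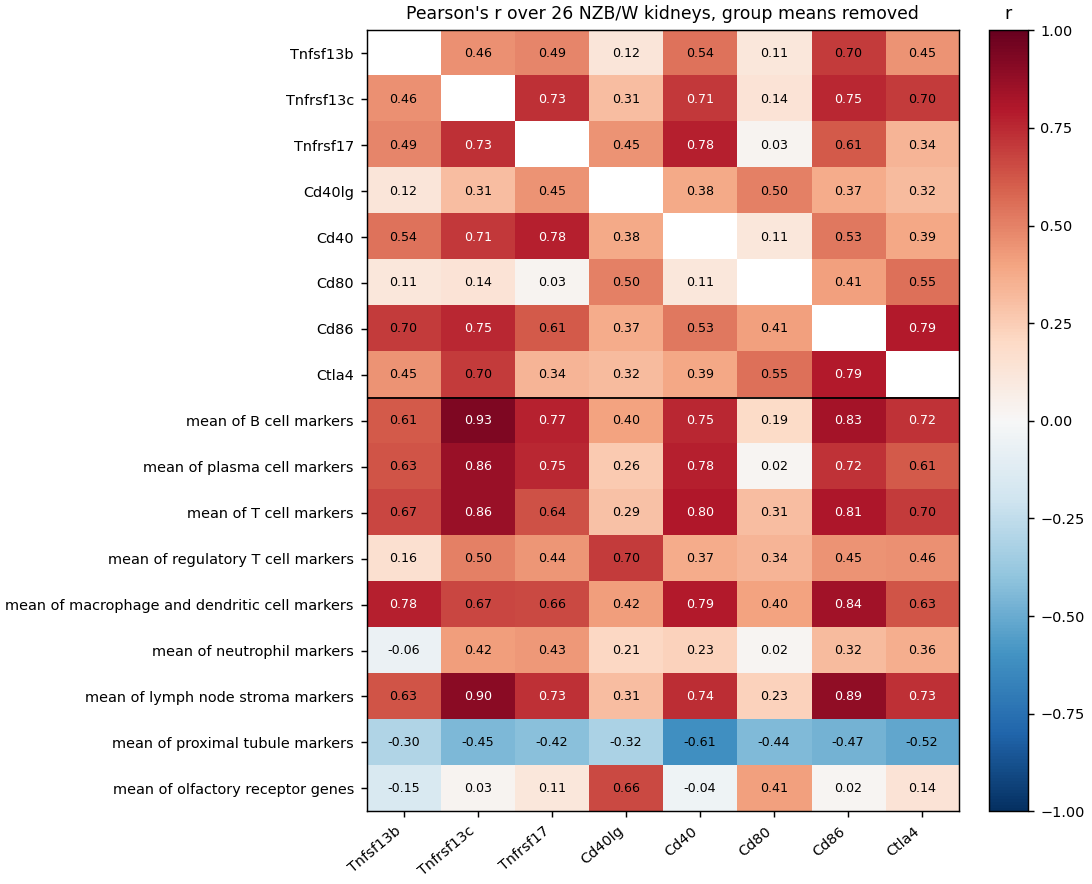
Pearson's r over 26 NZB/W kidneys, after the mean of each group was subtracted, between the 8 genes (columns) and the same genes or the mean of each marker list (rows); colour runs from -1 (blue) to 1 (red), and blank cells are a gene with itself. The highest value is Tnfrsf13c with the B cell markers (0.93), and Cd80 and Cd40lg have low values with most immune lists.

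The genes with the most similar pattern over the 26 NZB/W kidneys, by highest r after group means were subtracted, were as follows, as a description without a test. For Tnfrsf13c these were Ms4a1 (0.94), the cell cycle factor Pclaf (0.94) and Spib (0.93), a transcription factor of B cells and plasmacytoid dendritic cells. Cd40 was followed most closely by the kinase Ikbke (0.92), the maturation marker Cd83 (0.92) and the myeloid and B cell regulator Irf8 (0.91). For Cd86 the 3 were the adaptor Sla (0.94), Fignl1 (0.92) and the Fcγ receptor Fcgr3 (0.92), and for Ctla4 the RNA sensor Tlr7 (0.88), Sla (0.87) and the B cell kinase Btk (0.87). Tnfsf13b ran with Fgl2 (0.82), the leukocyte surface protein Spn (0.81) and the chemokine Ccl8 (0.80).

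Tnfrsf17 ran with D16Ertd472e (0.84), the helicase Blm (0.84) and the granzyme Gzma (0.82), and Cd40lg with the macrophage lectin Siglec1 (0.86), Tmem17 (0.83) and Pik3r6 (0.80). Cd80 ran with Boll (0.80), Slitrk2 (0.80) and the cytokine Il1a (0.79). Between the strains, the nearest genes did not all move as the genes they follow within NZB/W. Spib differed by -0.53 ± 0.17 beside Tnfrsf13c (-0.12 and not called after the olfactory centring), whereas Ikbke (-0.22 ± 0.15), Cd83 (0.27 ± 0.30) and Irf8 (0.28 ± 0.18) were not called beside the higher Cd40, and Siglec1 was at -0.04 ± 0.06 beside the lower Cd40lg (SE, NZM2410 kidneys minus 30-week kidneys; limma adjusted p = 0.0125, 0.216, 0.459, 0.204 and 0.586). Pik3r6 (-0.86 ± 0.06) was called lower beside Cd40lg, Gzma (-1.07 ± 0.15) beside Tnfrsf17 and Il1a (-0.72 ± 0.08) beside Cd80. So were Tlr7 (-0.33 ± 0.12) beside Ctla4 and Pclaf (-0.48 ± 0.18) beside Tnfrsf13c (SE, limma adjusted p = 2.14e-08, 2.43e-05, 1.57e-06, 0.0235 and 0.0321). Tmem17, D16Ertd472e, Blm, Boll, Slitrk2, Sla and Btk were not called beside these same genes.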

How the data were processed

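The deposited log2 values, 1 probe set per Entrez gene, were made by the authors with RMA per the submitters' processing notes; a software version and any batches are not given in the sources used here. Of 16539 probe sets, 15780 had 1 gene name and were tested (15752 with an Entrez ID in RefSeq, GRCm38.p6), 64 were array controls and 695 had no name. Array medians ran from 7.04 to 7.17. The number of arrays limits the precision. All 10 pairs of the 5 groups, taken from the labels, were fitted one at a time with limma 3.58.1 in R 4.3.3, with Benjamini-Hochberg adjustment over 15780 genes and a threshold of 0.05, and the fit was tested on simulated data. Correlations used numpy 2.4.6, scipy 1.17.1 and pandas 2.3.3 in Python 3.11.15. The genes, lists and marker sets were chosen with earlier results of these data known. The text names the 10 listed genes, per list and comparison up to 4 called genes with the largest difference, and the 3 genes most like each listed gene. Alternatives were a joint fit, further scalings, a dim-gene filter, a stricter call, a trend and robust prior, a replicate block and each kidney left out. The centring on olfactory receptor genes and the joint omission of 2 kidneys were chosen after seeing the data.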

Additional observations from a re-analysis of the deposited data

Results flagged for a closer look

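Of 40 tests for a kidney far from the rest of its group (8 genes in 5 groups, Dixon's test at the 95% level), 6 marked a kidney, where chance marks about 1 in 20. At 30 weeks, replicate 2 was marked for 3 genes. It had 7.12 for Tnfrsf13c, against 5.93 to 6.41 in the other kidneys, 6.41 for Cd40, against 5.83 to 5.97, and 6.63 for Cd86, against 5.62 to 6.04. The same kidney was highest of its group for the mean of the B cell markers (6.74, next 6.10), the macrophage and dendritic cell markers (9.27, next 8.31) and the lymph node stroma markers (7.80, next 6.48), whose part in the 3 values was not tested. Without it, NZM2410 kidneys differed from 30-week kidneys by -0.80 for Tnfrsf13c and by 0.52 for Cd40, both still called.

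In NZM2410 kidneys, replicate 3 had 6.81 for Cd40, against 6.27 to 6.42 in the others, and was also highest of its group for the macrophage and dendritic cell markers (8.77, next 7.98). Without it Cd40 was higher than at 30 weeks by 0.37 (limma adjusted p = 0.00224), and without both this kidney and 30-week replicate 2 by 0.44.

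Cd40lg was marked in NZM2410 replicate 4, at 6.29 against 5.84 to 6.01 in the others, and in replicate 3 of early remission, at 6.42 against 6.73 to 6.95. Without NZM2410 replicate 4 the difference from 30 weeks was -0.76, and without the early-remission kidney the difference of NZM2410 from early remission was -0.84.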

How the results depend on the processing

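Of 1542 differences of single genes recomputed under an alternative, 1520 kept their call, 11 lost it with the same sign, 6 gained it and 5 lost it at values of about 0 on the other side of 0. These 5 came with arrays centred on olfactory receptor genes, where NZM2410 minus NZB/W for Cd80 was 0.03 against late triple therapy, 0.01 against TACI-Ig, 0.03 against early remission and 0.05 against 30 weeks, and Ctla4 was at 0 against early remission. Without the 5260 dimmest genes, 5808, 5368, 5971 and 5814 genes were called between NZM2410 and these NZB/W groups in the same order, and of the genes described 2, 2, 2 and 2 of the 3 that passed the filter. With a stricter call (adjusted p up to 0.001, fold from 1.4 up or 0.7 down), these were 2817, 3153, 2950 and 2628 genes, with 2, 5, 4 and 3 of the genes described. The joint fit called 3 genes between early remission and 30 weeks, 314 between TACI-Ig and early remission, 1 between late and early triple therapy and 0 between late triple therapy and TACI-Ig, and none of them was a gene described here. Late against early triple therapy held 0 calls after quantile normalization, 7 with a trend and robust prior, 0 at the stricter call and 2 with olfactory centring.

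With each kidney left out in turn, calls within NZB/W ran from 0 to 12 genes for early remission against 30 weeks (12 without 30-week replicate 2, 10 without early replicate 8), from 0 to 1309 for TACI-Ig against 30 weeks (1309 without TACI-Ig replicate 2, 4 without 30-week replicate 7), from 0 to 1076 for TACI-Ig against early remission (1076 without TACI-Ig replicate 2) and from 0 to 32 for late against early triple therapy (32 without late replicate 8, 30 and 27 without early replicates 8 and 2, 4 without late replicate 11, and 0 without early replicates 3 to 7 or late replicates 6, 7, 9 or 10). None of the 8 genes was called in any of these. Leave-outs of 1 kidney gave 0 calls for late triple therapy against 30 weeks and 10 to 13 for late triple therapy against TACI-Ig, and between NZM2410 and NZB/W 9244 to 9868, 8810 to 9565, 9745 to 10209 and 9414 to 10181 genes against late triple therapy, TACI-Ig, early remission and 30 weeks. The causes were not tested. Replicate numbers did not pair the kidneys, since same-numbered kidneys of early remission and 30 weeks deviated together with r from -0.09 to 0.34 over 7 pairs, and over 0.1 in 3. With the replicate number as a block, 1 gene was called for TACI-Ig against 30 weeks, 1 for TACI-Ig against early remission and 1 for late against early triple therapy, and the number of the genes described that were called changed in no comparison. No block could be fitted for NZM2410 against late triple therapy, which share 1 number. In arrays, signal near background limits Tnfrsf13c, Tnfrsf17, Cd80 and Ctla4, which were above the gauge in 0 of 6 NZM2410 kidneys, and groups of 5 to 8 kidneys leave wide intervals for Tnfsf13b and Cd86. It also limits Cd40 and Cd86 on the NZB/W side, where each was above the gauge in only 1 kidney, at 30 weeks.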

Other observations

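Adrenal cortex genes varied between and within the NZB/W groups, with a mean of 7 markers of 5.40 ± 0.09 in NZM2410 kidneys, 7.08 ± 0.24 in late remission after triple therapy, 5.52 ± 0.09 after TACI-Ig, 7.29 ± 1.44 in early remission and 8.17 ± 1.62 at 30 weeks (SD, n = 6, 6, 5, 8 and 7). Over the 26 NZB/W kidneys, with group means subtracted, r between this mean and the 8 genes described ran from -0.09 for Cd80 to 0.35 for Cd40lg. Against 30 weeks, 31.3% of all genes were called lower and 31.5% higher in NZM2410 kidneys, and 7.21% and 70.4% once arrays were centred on olfactory receptor genes. Of 4 regulatory T cell markers, 3 were called lower and 0 higher in this comparison, and 2 lower and 1 higher (median -0.03) after that centring. Among them was Foxp3, their defining transcription factor, at 4.04 ± 0.07 in NZM2410 kidneys and 4.60 ± 0.08 in 30-week kidneys (difference -0.57 ± 0.05, SE, limma adjusted p = 3.05e-07) and after that centring at -0.16 (limma adjusted p = 0.0152) against 30 weeks, and not called against TACI-Ig (-0.12, 0.149) or late triple therapy (-0.15, 0.0943).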
